A study of Mus musculus with 24 samples.

Results

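The imprinted Dlk1-Dio3 microRNA (miRNA) cluster of mouse chromosome 12 was followed through 45 mature miRNAs, chosen from a list of miRNAs processed from the hairpins of that locus, by name and not by level. The choice was made with earlier results of these data known, so it was not independent of the values reported below. These 45 stand among 1657 mature miRNAs listed at day 14, 1707 at day 90 and 1767 at day 180. Small RNA was sequenced from lung tissue of C57BL/6 mice that were 6-8 weeks old when they were assigned to groups. The irradiated groups received a total of 15 Gy of X-rays to the whole thorax, with the rest of the body spared, and the control groups are labelled only as controls. Lungs were taken at day 14, day 90 and day 180, which gives 6 groups of 4 libraries and 24 libraries in all. The labels do not tie libraries to separate animals, so every p-value measures only the spread between these libraries, which may be technical. The question followed here is how each member, and each block of the locus, stood in irradiated against control lung at each day.

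An imprinted gene is read from only the maternal or the paternal chromosome. In this domain the protein-coding genes Dlk1, Rtl1 and Dio3 are read from the paternal copy, while the noncoding transcripts Meg3, Rian and Mirg and the miRNAs embedded in or between them are read from the maternal copy. The miRNAs lying opposite Rtl1 match its messenger RNA perfectly and can direct its cutting. The cluster is known for high levels in embryo, placenta and brain and for low levels in most adult tissues, and its miR-154 family has been described in fibrotic lung.

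In the GENCODE vM21 annotation of GRCm38.p6, the build that the submitters' processing notes name, the 38 hairpins that hold the members lie on the plus strand of chromosome 12 from 109585789 to 109743795, a span of 158.0 kb. Their positions fall into 3 blocks. The upstream block has 8 hairpins over 9.6 kb, and 5 hairpins of the locus lie opposite an exon of Rtl1, miR-127 and miR-136 among them. The middle block has 2 hairpins, miR-341 and miR-370, in introns of Rian. The downstream block has 28 hairpins over 34.7 kb from miR-379 at chr12:109709060-109709125 onwards, of which 7 overlap an exon and 4 an intron of Mirg, and across the locus 20 hairpins overlap no other annotated gene.

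The mature sequences below are those on which the results turn: the 3 most abundant members, the members closest to the test threshold after irradiation, and pairs of near relatives. The sequences are RefSeq's, from a table with the build GRCm38.p6, and are written 5′ to 3′ with the seed, bases 2 to 8, which does most of the pairing with a target, in capitals.
mmu-miR-127-3p: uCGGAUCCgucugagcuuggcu
mmu-miR-136-5p: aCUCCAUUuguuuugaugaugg
mmu-miR-341-3p: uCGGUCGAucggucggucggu
mmu-miR-379-5p: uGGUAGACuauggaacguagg
mmu-miR-411-5p: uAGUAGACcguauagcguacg
mmu-miR-543-5p: aAGUUGCCcgcguguuuuucg
mmu-miR-376a-3p: aUCGUAGAggaaaauccacgu
mmu-miR-376b-3p: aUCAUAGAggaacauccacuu
mmu-miR-300-3p: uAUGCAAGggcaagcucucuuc
mmu-miR-381-3p: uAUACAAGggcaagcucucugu
mmu-miR-496a-3p: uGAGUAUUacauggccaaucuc
mmu-miR-541-5p: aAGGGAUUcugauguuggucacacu
mmu-miR-409-3p: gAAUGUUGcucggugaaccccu

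RefSeq held a mature sequence for 42 of the 45 members, 20 to 25 bases long, and these 42 carry 42 distinct seeds, so that no pair of them shares all 7 seed bases. miR-376c-3p, miR-485-5p and miR-487b-3p are named only. Outside the 45, miR-1193-5p of the same locus has the seed of miR-379-5p. Counted from 1 at the 5′ end of the first of each pair, miR-300-3p and miR-381-3p differ by G4A, U21G and C22U, and miR-376a-3p and miR-376b-3p by G4A, A13C and G20U. Each of these pairs therefore differs inside the seed at 1 base, and since 3 substitutions in all separate the pair, how the counting divided their reads is uncertain. miR-379-5p and miR-411-5p, neighbours on the chromosome, differ by G2A, U9C, A10G, G12A, G13U, A15G and G20C.

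Total counts per library ranged from 2832205 to 3695133, and the members took between 0.2162% and 0.6536% of them. Levels are CPM, a count divided by the library's total and brought to a fixed scale, with library totals adjusted by edgeR's trimmed mean of M-values (TMM). A mature miRNA yields 1 short read whatever its exact length, so CPM was not divided by length. Lung markers, taken as lists, were high in every library: the 2 endothelial miRNAs summed to between 35794 and 57787 CPM, and ciliated cell miRNAs to between 6511 and 17487 CPM. Irradiated library 1 of day 180 had the lowest total count and stood apart from the other 23 libraries in the spread of its members, as described with day 180. Control library 2 of day 14 stood apart in its 2 stratified epithelium miRNAs, at a sum of 4016 CPM.

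Of the 45 members, 30 passed the filter on low counts at day 14, 32 at day 90 and 33 at day 180, and 12 passed at no day. The untested members had between 0 and 81 counts in any library of day 14. The highest such count was 27 for day 90 and 21 for day 180. The cluster's reads were concentrated in few members. miR-127-3p, from opposite Rtl1, and miR-379-5p and miR-411-5p, the first hairpins of the downstream block, together took between 68.1% and 84.0% of the summed member CPM in each library. In control lung miR-127-3p stood at 889 ± 105 CPM at day 14, 1031 ± 102 at day 90 and 791 ± 74.6 at day 180 (SD, n = 4 for each group here and below). miR-411-5p followed at 493.9 ± 69.5, 575 ± 108 and 581 ± 57.4 CPM and miR-379-5p at 380 ± 21.5, 365 ± 50.1 and 427 ± 35.7 CPM. The order of these 3 was the same in the control means of the 3 days. At day 90, where control miR-411-5p spanned 506 to 734 CPM and miR-379-5p 315 to 426 CPM, their ranges did not overlap. The next members were miR-154-5p, at 81.5 ± 11.3 CPM in the day 14 controls, and miR-376a-3p, at 73.3 ± 16.3 CPM, which did not differ beyond their spread.

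Both arms of 7 hairpins are members, and which arm held the reads differed by hairpin. The share of 5p reads had a median over the 24 libraries of 96.3% for miR-136, 88.1% for miR-337 and 0% for miR-127, whose 5p share did not exceed 0.101% in any library. miR-434 and miR-299a used both arms, with medians of 34.6% and 43.9%. The 5p share of miR-543 ranged from 12.0% to 68.6%, the highest value being irradiated library 1 of day 180, and had a median of 22.6%.

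At day 14 irradiated and control lung had like levels of most members. None of the 30 tested members passed edgeR's quasi-likelihood test with Benjamini-Hochberg adjustment at 0.05, where 0 of all 499 miRNAs (0%) passed, and none had an unadjusted p below that value, against 27 of the 499 (5.41%). DESeq2 called 1 miRNA of any kind (0.2%) and limma-voom 0. No member had groups that did not overlap, higher (0.802% of all miRNAs) or lower (1.6%). The members' log2 fold changes, irradiated over control, had a median of 0.047 beside 0.012 for all miRNAs, and 18 of 30 were above 0, beside 51.9% of all. The member nearest to the threshold was miR-434-3p of the Rtl1 block, at 70.7, 59.3, 46.1 and 53.5 CPM in the 4 controls and 79.6, 79.5, 61.2 and 78.3 CPM in the irradiated libraries. Irradiated library 3 lay inside the control range and the other 3 above it, and the log2 fold change was 0.38 ± 0.19 (SE, edgeR adjusted p = 0.907, 0.698 to 0.992 over the alternative settings). Library 3 was the lowest of both groups, and the irradiated library was the higher in 4 of 4 pairs that share a number. With the replicate number as a block the change was 0.39 (adjusted p = 0.698). miR-379-5p overlapped fully, at 390, 397, 348 and 383 CPM in controls and 421, 296, 437 and 359 CPM after irradiation. Irradiated library 2 was low across the cluster: only 4 of its 30 tested members stood above the median of the day's 8 libraries, and it held the lowest of the 8 values for 13 of them. Without that library the member median was 0.16.

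**Figure D1:**
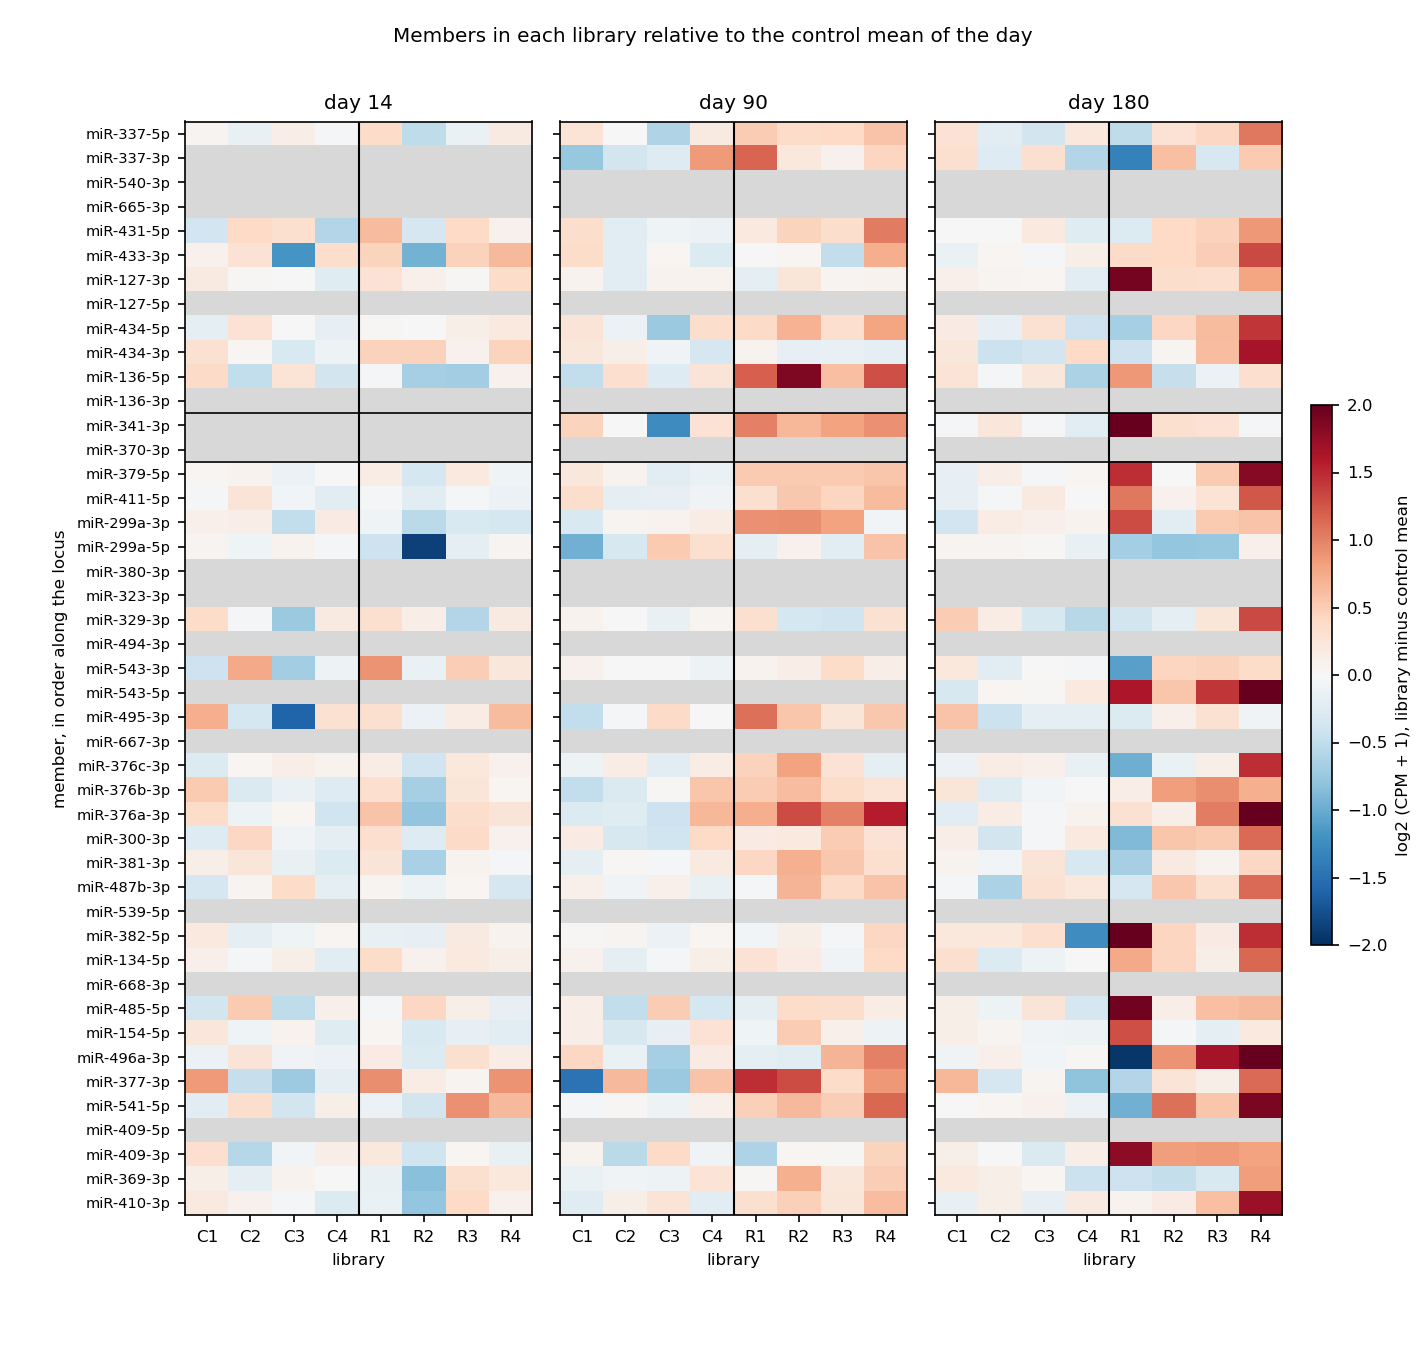
Log2 (CPM + 1) of each tested member in each library minus the log2 (control mean + 1) of the day, by colour from blue (lower) to red (higher) and clipped at 2 either way; C1 to C4 are control and R1 to R4 irradiated libraries, rows follow the chromosome with lines between the 3 blocks, and grey rows were not tested. Columns R1 to R4 of day 90 are red in most rows, and at day 180 R4 is red almost throughout while R1 mixes dark red and dark blue.

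At day 90 almost all tested members stood higher in irradiated lung, with no single member past the threshold over all miRNAs. Of 32 tested members, 31 had a log2 fold change above 0, beside 48% of all 558 miRNAs, and the median was 0.47 beside -0.022 for all. The members share 1 locus and the same libraries, so counts of members are not counts of separate observations. The members' median level by library had an SD within groups of 0.11 (log2). None was called by edgeR's quasi-likelihood test with Benjamini-Hochberg adjustment, where 2 of the 558 (0.358%) were. An unadjusted p under 0.05 with irradiated higher was found for 11 members, beside 8.24% of all miRNAs, and with irradiated lower for 0, beside 4.48%. In 7 members every irradiated library stood above every control, beside 4.84% of all miRNAs, and in 0 every one stood below, beside 2.33%. DESeq2 called 4 members, miR-136-5p, miR-376a-3p, miR-541-5p and miR-379-5p, where it called 19 of the 558 miRNAs (3.41%). limma-voom called 0 members and 3 of the 558 (0.538%). In bulk tissue a change in the number of cells that carry a miRNA and a change in its level per cell cannot be told apart.

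In the upstream block 7 of 8 tested members were above 0 with a median of 0.52. miR-136-5p, from the hairpin at chr12:109595327-109595388 opposite Rtl1, gave the largest change of any member at day 90. It was measured at 15.9, 29.2, 18.9 and 27.5 CPM in the controls and at 53.5, 85.7, 35.4 and 57.6 CPM in the irradiated libraries. All 4 irradiated values lay above all 4 controls, and the log2 fold change was 1.34 ± 0.30 (adjusted p = 0.119, 0.00557 to 0.394 over the alternatives). Its neighbour miR-127-3p, the most abundant member, read 1086, 878, 1077 and 1083 CPM against 912.5, 1224, 1067 and 1080 CPM after irradiation. The groups overlapped fully and the log2 fold change was 0.055 ± 0.15 (adjusted p = 0.944). The arms of miR-434, the hairpin between them, read differently: miR-434-5p had 0.57 ± 0.26, or 0.38 without control library 3, and miR-434-3p -0.11 ± 0.18, neither past the threshold.

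In the middle block miR-341-3p was the 1 tested member, at 15.9, 11.5, 4.198 and 14.1 CPM in controls and 23.9, 18.8, 20.8 and 22.5 CPM after irradiation, a gap between the groups and a log2 fold change of 0.91 ± 0.35. It is named after its values were seen. At day 14, where it was not tested, it read 1.54, 1.78, 7.51 and 0 CPM in controls. After irradiation it read 26.6, 0.327, 11.3 and 0.621 CPM at that day, a range that enclosed both groups of day 90.

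In the downstream block all 23 tested members were above 0, from 0.014 to 1.22, with a median of 0.43. The top value was that of miR-377-3p, with 3 to 26 counts in controls and 19 to 47 after irradiation. Its place among the tested members of day 90 leaned on the irradiated libraries, though it was also tested at day 14 and day 180. miR-376a-3p stood at 52.4, 53.5, 47.4 and 101 CPM in controls and at 106, 158, 128 and 191 CPM in irradiated lung. Control library 4 reached nearly to the lowest irradiated value, without overlap, and the log2 fold change was 1.198 ± 0.292 (adjusted p = 0.119, 0.00961 to 0.394). Without that control the change was 1.49 and passed (adjusted p = 0.0218). miR-376b-3p, its near relative with another seed, read 5.31 ± 2.10 against 7.60 ± 0.885 CPM, a log2 fold change of 0.51 ± 0.30, or 0.34 without control library 1 and 0.78 without control library 4.

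miR-379-5p was the most even of the members after irradiation, at 527, 526, 528 and 538.5 CPM, against 426, 386, 315 and 334 CPM in controls. The irradiated libraries were nearly equal and all above the controls, and the log2 fold change was 0.54 ± 0.16 (adjusted p = 0.216, 0.00741 to 0.606). miR-411-5p changed by a like amount, from 734, 506, 511 and 549 CPM to 722, 834.5, 773 and 895 CPM. Control library 1 lay inside the irradiated range, and the log2 fold change was 0.49 ± 0.18 (adjusted p = 0.276). miR-541-5p, from a hairpin in an intron of Mirg, read 22.3, 23.3, 21.3 and 24.6 CPM in controls and 32.4, 36.7, 32.7 and 52.2 CPM after irradiation. The groups did not overlap, and the log2 fold change was 0.75 ± 0.21 (adjusted p = 0.159, 0.0392 to 0.668). miR-381-3p, at 41.0 ± 4.27 against 58.7 ± 6.98 CPM, did not overlap either (0.52 ± 0.18, adjusted p = 0.269), while miR-409-3p and miR-154-5p gave 0.020 ± 0.28 and 0.13 ± 0.22.

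The summed CPM of the 45 members gave the same picture by library. It was 3072.5, 2516, 2622 and 2860 CPM in the day 90 controls and 3161, 3778, 3364 and 3689 CPM in the irradiated libraries, which did not overlap. The upstream block on its own did overlap, at 1108 to 1349 CPM in controls and 1212 to 1552 CPM after irradiation, and the downstream block did not, at 1350 to 1707 against 1923 to 2243 CPM. The share of tested members above the median of the day's 8 libraries was 56.2% to 90.6% in the irradiated libraries and 9.38% to 43.8% in the controls.

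**Figure D2:**
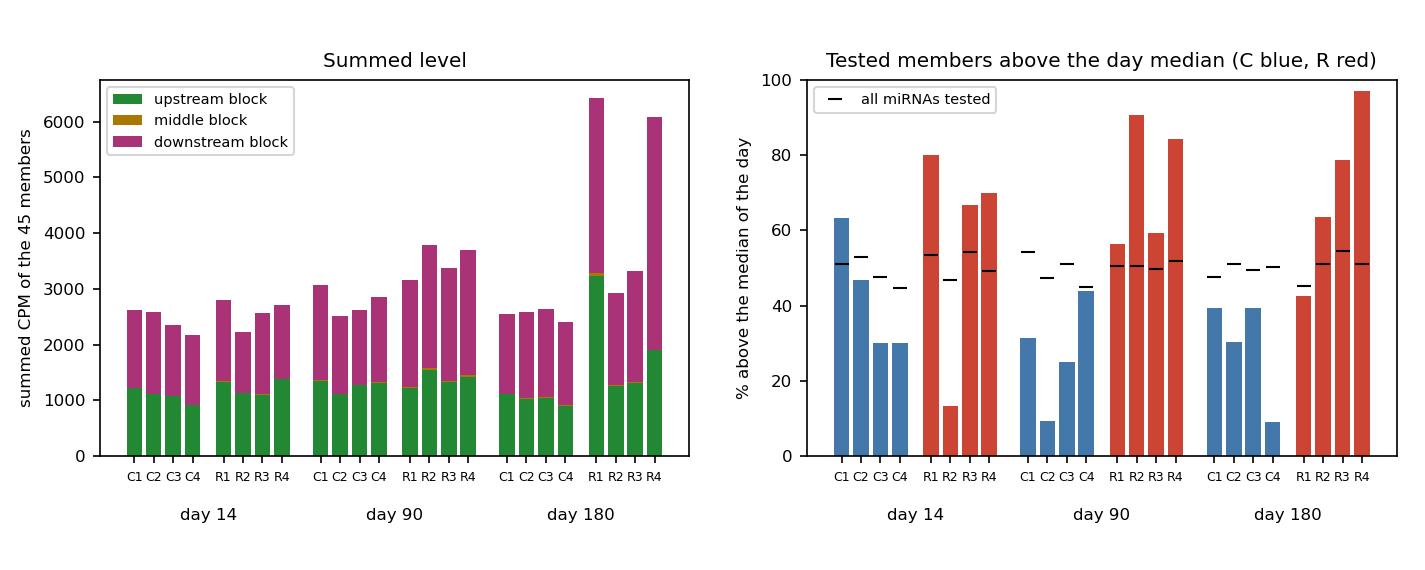
Left, summed CPM of the 45 members in each library, stacked by block; right, percent of tested members above the median of the day's 8 libraries (bars; controls C blue, irradiated R red), with black marks for all miRNAs tested. At day 180 the sums of R1 (6427 CPM) and R4 (6074 CPM) stand far above the other 22 libraries, but only R4 has nearly all its members above the day's median.

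Markers of other cell types moved with the day 90 groups. All 7 striated muscle miRNAs were above 0, with sums of 371 to 1301 CPM in controls and 978 to 3921 CPM after irradiation, the groups overlapping and miR-208a-3p at 0 in at least 1 library. The 2 hepatocyte miRNAs summed to 166 to 473 CPM in controls and 660 to 1069 CPM after irradiation, without overlap. The 2 miRNAs called at day 90 were 1 of each of these lists. The 5 neural miRNAs, which mark a tissue where the cluster is high, summed to 132 to 348 CPM in controls and 189 to 298 CPM after irradiation, and 1 of 5 was above 0. Of the lung's own cell types, all 4 ciliated cell miRNAs had a log2 fold change above 0, with sums of 13388 to 15186 CPM in irradiated lung against 9591 to 14805 CPM in controls, and all 5 epithelial miRNAs, with 39602 to 48672 against 34572 to 44415 CPM. Of the leukocyte miRNAs 2 of 4 were above 0, with sums of 15335 to 21385 against 19895 to 30278 CPM, and of the fibroblast miRNAs 2 of 5, with 10665 to 12404 against 10422 to 14331 CPM. Each of these pairs of ranges overlapped. The part of these cells in the members' values was not tested.

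At day 180 almost all tested members again stood higher in irradiated lung, with far more spread between the irradiated libraries. Of 33 tested members, 32 were above 0, beside 58.9% of all 552 miRNAs, and the median log2 fold change was 0.70 beside 0.13 for all. As at day 90, these are not separate observations, and the members' median level by library had an SD within groups of 0.41 (log2). edgeR's quasi-likelihood test with Benjamini-Hochberg adjustment called 0 members and 0 of the 552 miRNAs (0%), with 101 miRNAs (18.3%) at an unadjusted p under 0.05. By that unadjusted measure 12 members were higher, beside 10.9% of all miRNAs, and 0 lower, beside 7.43%. The groups did not overlap in 4 members with irradiated higher, beside 5.43% of all miRNAs, and in 0 with irradiated lower, beside 6.52%. The 4 were miR-409-3p, miR-127-3p, miR-433-3p and miR-543-5p, the last of which passed the filter on low counts at day 180 only. DESeq2 called 2 members, miR-543-5p and miR-409-3p, where it called 28 of the 552 miRNAs (5.07%). limma-voom called 0 members, and a fit of all 24 libraries together called 6, beside 32 of 624 miRNAs (5.13%). In controls the summed member CPM was 2547, 2587, 2637 and 2405 CPM, and in irradiated libraries 6427, 2916, 3323 and 6074 CPM, so that libraries 1 and 4 stood well above libraries 2 and 3.

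Irradiated library 4 was high nearly throughout the cluster, with 32 of its 33 tested members above the day's median and the highest of the 8 values for 21. Without it the member median was 0.33 and 78.8% of members were above 0. Without library 1 the median was 0.63 and 90.9% were above 0. The 4 controls held the highest value for 1 member in all.

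In the upstream block all 8 tested members were above 0, with a median of 0.54. miR-127-3p, whose groups overlapped at day 90, read 849, 823, 811 and 682 CPM in controls and 2999, 1004, 1002 and 1362 CPM after irradiation. Every irradiated library lay above every control, with library 1 more than the others, and the log2 fold change was 1.01 ± 0.37 (adjusted p = 0.259, 0.0287 to 0.496) and 0.49 without library 1. miR-433-3p, also opposite Rtl1, read 18.3, 20.8, 19.8 and 22.0 CPM in controls and 26.8, 27.1, 28.8 and 52.2 CPM in irradiated lung, and is named after its values were seen. Here libraries 1 to 3 were alike and library 4 was high, and the log2 fold change was 0.74 ± 0.30 (adjusted p = 0.259) and 0.46 without library 4. miR-136-5p, the member with the largest change at day 90, was at 57.7, 47.0, 56.2 and 30.3 CPM against 88.3, 34.5, 43.8 and 60.5 CPM, which overlapped.

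In the downstream block 23 of 24 tested members were above 0, with a median of 0.73. The 1 tested member of the middle block, miR-341-3p, was at 12.2, 14.7, 12.2 and 10.5 CPM in controls and 57.8, 15.8, 15.4 and 12.2 CPM after irradiation. Library 1 alone stood high and the other 3 overlapped the controls, and the log2 fold change of 1.01 ± 0.50 was 0.21 without library 1. miR-543-5p, a scarce arm, was nearest to the threshold, at 1.86, 2.67, 2.62 and 3.09 CPM in controls and 9.91, 4.24, 8.60 and 13.5 CPM after irradiation. It passed the filter on low counts at day 180 only, not at day 14 or day 90. Its place among the tested members thus leans on the irradiated libraries in which it was high. All irradiated values lay above the controls, and the log2 fold change was 1.81 ± 0.42 (adjusted p = 0.105, 0.00576 to 0.453). Without irradiated library 2, its lowest irradiated value, the change was 2.03 and passed (adjusted p = 0.0419). The opposite arm, miR-543-3p, read 10.7 ± 1.40 CPM in controls and 12.1 ± 5.08 CPM after irradiation (0.19 ± 0.38), lowest of all in library 1.

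miR-409-3p was at 15.7, 14.4, 11.7 and 15.8 CPM in controls and at 52.4, 26.6, 26.8 and 26.0 CPM in irradiated libraries. Libraries 2 to 4 were nearly equal and above every control, library 1 was higher still, and the log2 fold change was 1.19 ± 0.32 (adjusted p = 0.163, 0.0188 to 0.453). miR-379-5p stood at 382.1, 467, 420 and 441 CPM in controls and at 1190, 423, 614 and 1515 CPM after irradiation. Irradiated library 2 lay within the control range and libraries 1 and 4 far above it, and the log2 fold change was 1.13 ± 0.39 (adjusted p = 0.259, 0.0226 to 0.496). miR-376a-3p had 62.5, 80.9, 71.1 and 76.1 CPM in controls and 90.4, 80.0, 149 and 314 CPM after irradiation. Library 4 led, library 2 lay within the control range, and the log2 fold change of 1.12 ± 0.43 was 0.57 without library 4. The 1 member below 0 was miR-299a-5p, at 4.57 ± 0.370 against 3.00 ± 1.32 CPM (-0.60 ± 0.37, or -0.95 without irradiated library 4). The other arm of that hairpin, miR-299a-3p, had 0.75 ± 0.42, or 0.40 without irradiated library 1.

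**Figure D3:**
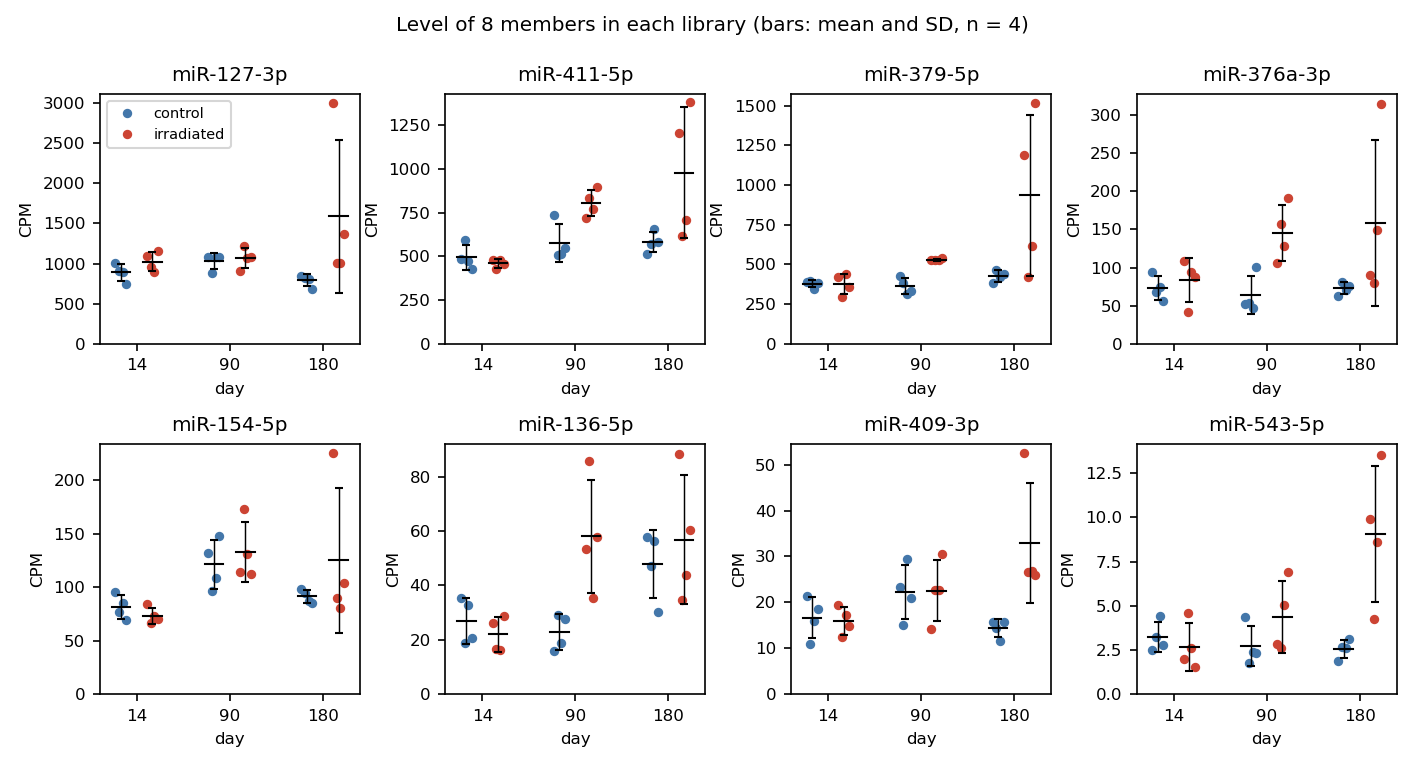
CPM of 8 members in each library by day (x axis), controls blue and irradiated libraries red, with the group mean and SD in black (n = 4); each y axis starts at 0. miR-136-5p and miR-376a-3p separate at day 90, whereas at day 180 the red points spread, with 2 high libraries for miR-379-5p and miR-411-5p and 1 for miR-127-3p, miR-154-5p and miR-409-3p.

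Irradiated library 1 of day 180 differed from the others in which members it favoured. Over the 30 members with a RefSeq sequence, its log2 level minus the median of the day's other 7 libraries ran from -2.05 for miR-496a-3p to 2.15 for miR-341-3p. The interquartile range of these departures was 1.87 (log2), against 0.256 to 0.962 in the other 23 libraries. It held the highest of the 8 values for 8 tested members and the lowest for 10, so that its high sum rested on miR-127-3p, miR-379-5p and miR-411-5p, which made up 84.0% of it. The members at the extremes, named after their values were seen, differ in base composition in the sequences printed above: miR-341-3p has 9 G among 21 bases, and miR-496a-3p has 4 among 22. Across the 30 members the departure and the share of G in the sequence had a Spearman correlation of 0.60, as a description over points that share 1 library. Over the members control library 1 of day 180 had -0.63, larger in size and of the other sign. A member correlation of this size was therefore not particular to irradiated library 1. Over 420 miRNAs the correlation was 0.37 in irradiated library 1 and between -0.19 and 0.14 in each of the other 23. By the last base, the 7 members ending in G had a median departure of 1.31, the 19 ending in U -0.45, the 2 ending in A -0.73 and the 2 ending in C -1.56. The 111 miRNAs of all kinds ending in G had a median of -0.078, the 157 ending in U -0.075, the 77 ending in C -0.39 and the 75 ending in A -0.57. The members' gap between G and U was thus not seen over all miRNAs. What set this library apart was not tested.

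**Figure D4:**
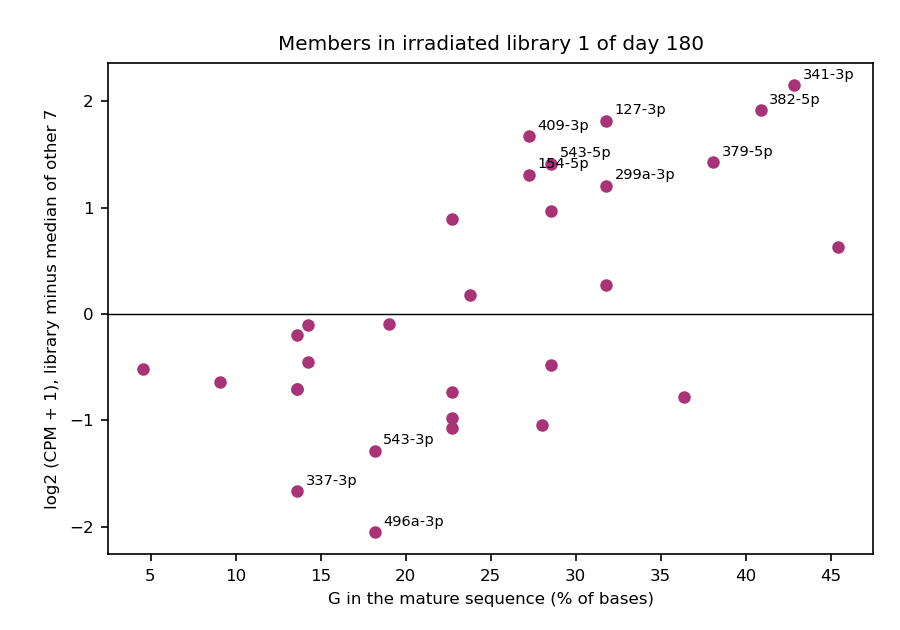
Departure of 30 members in irradiated library 1 of day 180 (y axis, log2 (CPM + 1) minus the median of the other 7 libraries of the day) against the share of G in the mature miRNA (x axis, percent of bases); each point is 1 member, and members beyond 1.2 either way are named. Points run from -2.05 for miR-496a-3p to 2.15 for miR-341-3p, with the highest among the members richer in G.

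Markers at day 180 spread within the irradiated group. The 5 fibroblast miRNAs summed to 8198 to 8661 CPM in controls and 3454 to 14282 CPM after irradiation, and the 5 epithelial miRNAs to 39934 to 43280 CPM and 30447 to 68709 CPM. Both irradiated ranges enclosed the control range. In the order of irradiated libraries 1 to 4 the fibroblast sums were 3454, 8565, 10692 and 14282 CPM, the epithelial sums 68709, 39203, 35369 and 30447 CPM, and the members' median log2 level relative to the control mean -0.27, 0.29, 0.41 and 1.13. Library 4 was thus the highest of the 4 in fibroblast miRNAs and in the members' median and the lowest in epithelial miRNAs, and library 1 the reverse. In each of these lists 2 of 5 miRNAs had a log2 fold change above 0. The smooth muscle sums, in the same library order, were 43398, 32535, 30446 and 30391 CPM and ran as the epithelial ones did. The ciliated cell sums were 11687, 8033, 13072 and 17487 CPM in that order, against 9881 to 16050 CPM in controls. Library 4 was thus also the highest in ciliated cell miRNAs, so its high value was not particular to the fibroblast list. Library 1, which stood apart in the spread of its members, was also the highest of the 4 in endothelial (57787 CPM) and erythroid miRNAs (39738 CPM). The neural miRNAs summed to 280 to 476 CPM in controls and 351 to 564 CPM after irradiation, with 4 of 5 above 0, and the striated muscle miRNAs to 632 to 3202 CPM and 434.4 to 1775 CPM, with 2 of 6 tested above 0 and miR-208a-3p at 0 in at least 1 library. Their part in the members' values was not tested.

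Set side by side, the 30 members tested at all 3 days had their largest log2 fold change at day 180 in 19 cases, at day 90 in 10 and at day 14 in 1. Of these 30, 28 were above 0 at both later days and 17 at all 3. The count was not made over all miRNAs, whose median was 0.13 at day 180 and -0.022 at day 90. The order of the later days leaned on irradiated library 4 of day 180. Without it the member median of day 180 was 0.33, below the 0.47 of day 90. The differences between days were tested in 1 fit of all 24 libraries over 624 shared miRNAs. No miRNA and no member passed in any of the 3 differences (0% called in each), and DESeq2 called 1, 3 and 2 miRNAs (0.16%, 0.481% and 0.321%), with 0 members.

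For the effect at day 90 minus that at day 14, 27 of 33 members were above 0, with a median of 0.43 beside -0.013 for all miRNAs, of which 48.6% were above 0. An unadjusted p under 0.05 was found for 2 members higher and 0 lower, beside 3.04% and 1.44% of all miRNAs, namely miR-136-5p (1.64 ± 0.48, adjusted p = 0.394) and miR-299a-3p (1.21 ± 0.47, adjusted p = 0.787).

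For day 180 minus day 14, 28 of 33 were above 0, with a median of 0.53 beside 0.061 for all miRNAs, of which 55.3% were above 0, and 8 were higher and 0 lower at an unadjusted p under 0.05, beside 7.05% and 4.33% of all. miR-543-5p (2.05 ± 0.58), miR-409-3p (1.25 ± 0.41) and miR-379-5p (1.12 ± 0.36) each had an adjusted p of 0.207. miR-543-5p had not passed the filter on low counts at day 14 itself, and entered here through the joint fit. Without irradiated library 2 of day 180 the differences of miR-543-5p, miR-379-5p and miR-411-5p passed, with adjusted p of 0.0358, 0.0358 and 0.0468. Most miRNAs that passed in that setting were not members, as counted with the settings below. No member passed in any other setting.

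For day 180 minus day 90, 20 of 33 were above 0, with a median of 0.19 beside 0.080 for all miRNAs, of which 55.4% were above 0. At an unadjusted p under 0.05, 3 members were higher and 1 lower, beside 7.05% and 7.53% of all. The 3 were miR-409-3p (1.15 ± 0.40), miR-127-3p (0.94 ± 0.36) and miR-382-5p (1.15 ± 0.50), and the 1 lower was miR-136-5p (-1.11 ± 0.48), the adjusted p running from 0.269 to 0.292. Without irradiated library 1 of day 180 the differences of miR-127-3p and miR-382-5p were 0.42 and 0.66.

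**Figure D5:**
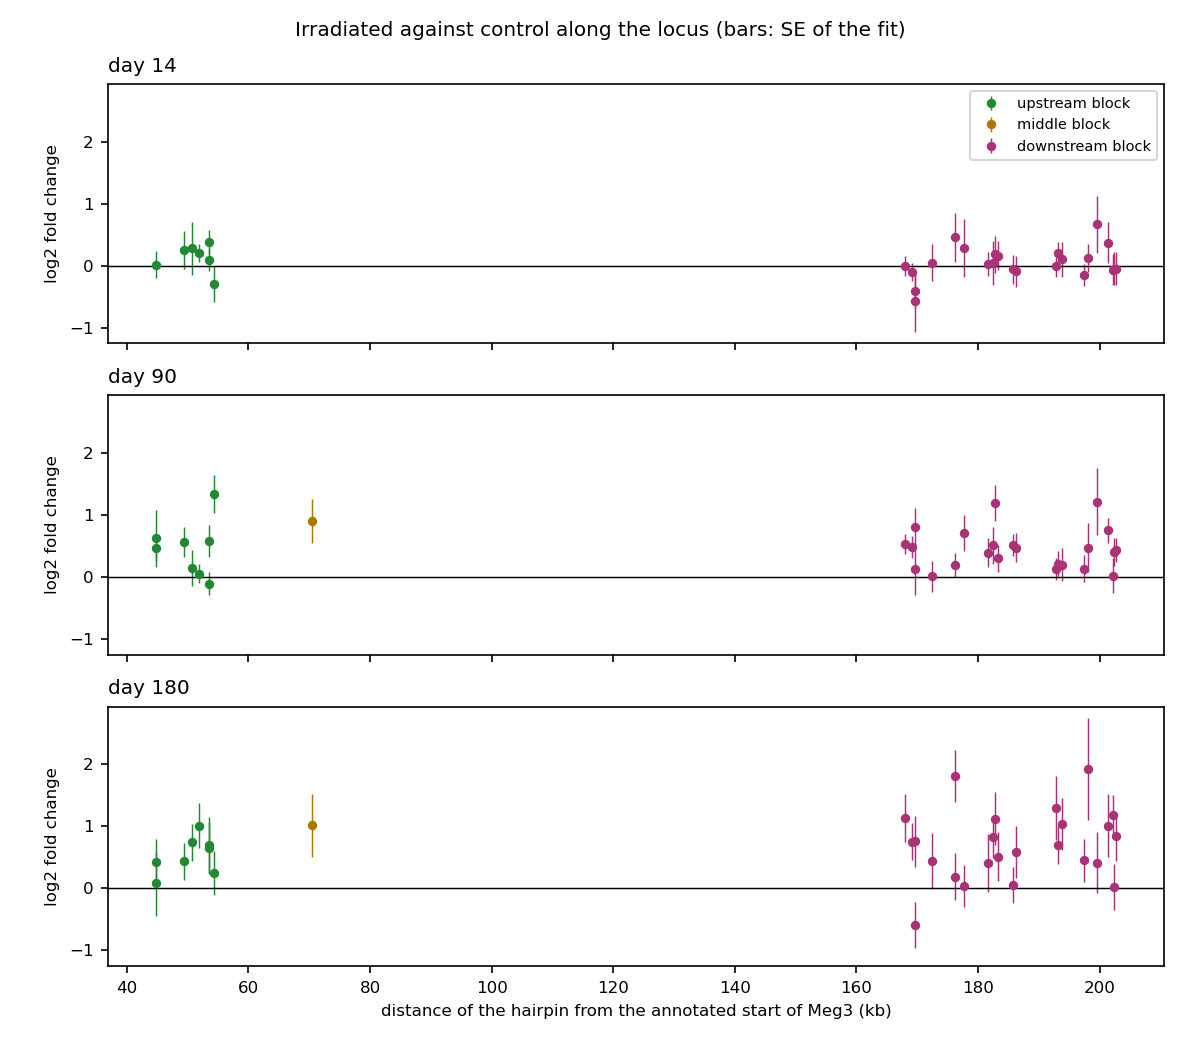
Log2 fold change of each tested member, irradiated over control, with the SE of the fit (bars), against the distance of its hairpin from the annotated start of Meg3 in kb; the panels are the 3 days and the colours the 3 blocks. Points straddle 0 at day 14 and lie above 0 in every block at days 90 and 180, apart from miR-434-3p at day 90 and miR-299a-5p at day 180.

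Control lung itself was compared between days in 1 fit of the 12 control libraries over 564 miRNAs. The 3 days were deposited as separate tables, so that age, day and table cannot be told apart here. No member was called, where 20 of 564 miRNAs (3.55%) were at day 90 against day 14, 49 (8.69%) at day 180 against day 14 and 0 (0%) at day 180 against day 90. For that last comparison 99 miRNAs (17.6%) had an unadjusted p under 0.05, among them 3 members. DESeq2 called 51 (9.04%), 83 (14.7%) and 32 (5.67%) of the 564 in the 3 comparisons, with 1, 2 and 1 members. The member medians were -0.025, -0.15 and -0.053 on the log2 scale, beside -0.0051, 0.016 and -0.029 for all miRNAs. miR-369-3p came nearest, with -0.75 ± 0.20 at day 90 against day 14 (adjusted p = 0.0548), and it passed with DESeq2. miR-127-3p had -0.37 ± 0.13 at day 180 against day 14 (adjusted p = 0.0999), and passed with DESeq2 (adjusted p = 0.0337). miR-341-3p, named after its values were seen, had 2.003 ± 0.72 at day 180 against day 14 (adjusted p = 0.106) and 1.87 ± 0.72 at day 90 against day 14 (adjusted p = 0.147). At day 180 against day 14 it passed with DESeq2 (adjusted p = 0.0329), limma-voom (0.0452) and the newer edgeR fit (0.0484), and both comparisons passed without control library 3 of day 14 (0.0222 and 0.0412). Its level in the day 14 controls was 1.66, 1.96, 8.37 and 0 CPM in that fit, library 3 being the highest. miR-136-5p, the leading member at day 90 after irradiation, had 1.08 ± 0.30 in day 180 against day 90 controls (adjusted p = 0.114), and passed with DESeq2.

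Mature miRNAs of the locus outside the 45 gave values on the same side. Those tested, apart from miR-1193-3p, are other arms of hairpins that hold members, so they are not separate from the members. At day 14, 4 of 4 tested were above 0, beside 51.9% of all miRNAs, but close to it, from 0.00026 to 0.13 with a median of 0.034. At day 90 it was 6 of 6 with a median of 0.45, beside 48% of all. At day 180 it was 5 of 5 with a median of 0.68, beside 58.9%. Of the 6, miR-329-5p passed the filter on low counts at day 90 only, with 4 to 11 counts in controls and 10 to 16 after irradiation. Its place there leans on the irradiated libraries. None was called at any day. Among them miR-154-3p, the other arm of the member miR-154-5p, read 5.95 ± 0.505 against 11.7 ± 3.65 CPM at day 90 (0.97 ± 0.27, adjusted p = 0.168) and 5.86 ± 2.27 against 10.5 ± 2.18 CPM at day 180. miR-154-5p itself read 121 ± 23.04 against 133 ± 28.1 CPM at day 90. Of miRNAs from other imprinted loci, miR-335-5p, whose host gene Mest is read from the paternal copy, read 67.8, 91.3, 66.2 and 63.8 CPM in controls and 64.8, 86.5, 111 and 302 CPM after irradiation at day 180. Irradiated library 4 was far above the rest, and the log2 fold change of 0.96 ± 0.46 (adjusted p = 0.311) was 0.28 without it. Of these miRNAs 3 of 3 tested were above 0 at that day, beside 2 of 3 at day 90 and 1 of 3 at day 14.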

How the data were processed

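Small RNA libraries of 24 lung samples were used, 4 in each of 6 groups. The deposited tables hold, per the file headers, raw read counts per mature miRNA and values normalised to the library total (RPM) by the authors, 1 table per day; the RPM values were not used in tests. Per the submitters' processing notes, Bowtie2 and the build GRCm38.p6 were used; the counting tool and any use of molecular identifiers are not given in the sources used here. Counts were filtered with edgeR's filterByExpr, scaled with TMM and tested per day with the quasi-likelihood F test of edgeR 4.0.16 in R 4.3.3. Benjamini-Hochberg adjustment was over all miRNAs that passed the filter, with a threshold of 0.05. Differences between days were contrasts in 1 fit on the miRNAs shared by the tables. DESeq2 1.42.0, limma-voom (limma 3.58.1), other scalings and filters, a replicate block and leaving out each library were the alternatives, and the newer edgeR fit was added after seeing the data. The procedure was tested on simulated data.

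The members and lists were chosen with earlier results of these data known. Named are the members past the threshold, the 8 most abundant, the 5 with the smallest p in each day and effect difference, and both arms of a hairpin where both passed the filter; others are named after their values were seen. Replicate numbers were checked as pairs. At day 14 the correlation of same-numbered libraries' deviations was 0.41, 0.17, 0.47 and 0.41. Each control correlated most with the irradiated library of its own number. The labels name no pairs, so the numbers may pair those libraries, from the data alone. The block called 0 members there, as did the fit without it. At day 90 the correlation ran from -0.22 to 0.36 and at day 180 from -0.36 to -0.09. Library totals ran from 2832205 to 3695133 counts, so scarce members rest on few reads.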

Additional observations from a re-analysis of the deposited data

Results flagged for a closer look

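In 11 of 138 groups of 4 libraries, 1 library lay far from the other 3 for a named member, where chance alone would mark about 1 in 20 groups. At day 14 these were miR-299a-3p in control library 3, at 2.73 CPM beside a median of 4.74 in the other 3, and miR-434-3p in irradiated library 3, at 61.2 beside 79.5 CPM. At day 90, miR-127-3p was low in control library 2 at 878 CPM beside 1083, miR-376a-3p was high in control library 4 at 101 beside 52.4 CPM, and miR-379-5p was high in irradiated library 4 at 538.5 CPM, beside 528 in a group of very small spread. In the day 180 controls, miR-299a-3p was low in library 1 at 2.66 beside 4.08 CPM, and miR-382-5p was low in library 4 at 9.28 beside 27.1 CPM. Among the irradiated libraries of day 180, library 1 was high for miR-154-5p, at 225 beside 90.2 CPM, and for miR-409-3p, at 52.4 beside 26.6 CPM, and low for miR-543-3p, at 4.54 beside 14.7 CPM. Library 4 was high for miR-299a-5p, at 4.97 beside 2.28 CPM.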

How the results depend on the processing

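Of 1232 values of single members under other settings, 20 passed the threshold, 24 changed direction and the rest kept both. Members called at day 90 (0) became 1 with upper-quartile scaling, 2 with no filter, 4 with DESeq2 and 0 to 1 leaving out 1 library (1 without control library 4). At day 180 (0) they became 2 with DESeq2, 1 with the newer edgeR fit, 6 with all 24 libraries in 1 fit and 0 to 1 leaving out 1 library (1 without irradiated library 2). For day 180 minus day 14 they were 0 to 3 leaving out 1 library, and for controls DESeq2 called 1, 2 and 1 members, limma-voom and the newer fit 1 at day 180 against day 14, and leaving out 1 library gave 0 to 1 in both comparisons with day 14 (control library 3 of day 14 or library 4 of day 90 or 180). The members' median at day 180 was 0.54 with a replicate block and 0.56 with limma-voom, settings that put the median of all miRNAs at 0.031 and 0.023 in place of 0.13, and without irradiated library 1 the median of all miRNAs was 0.000699. At day 14, upper-quartile scaling put 80% of members above 0 in place of 60%.

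Calls over all miRNAs moved more. Day 14 (0) gave 7 with no filter, 1 with DESeq2, 1 in the 24-library fit and 0 to 1 leaving out 1 library. Day 90 (2) gave 5 with upper-quartile scaling, 18 with no filter, 0 with a mean of at least 10 CPM, 19 with DESeq2, 5 with the newer fit, 0 with the replicate block, 0 in the 24-library fit and 0 to 7 leaving out 1 library (7 without control library 4). Day 180 (0) gave 18 with no filter, 28 with DESeq2, 3 with the newer fit, 32 in the 24-library fit and 0 to 5 leaving out 1 library. Effect differences (0 each) gave 1, 3 and 2 with DESeq2, and leaving out 1 library gave 0 to 18 for day 180 minus day 14 (18 without irradiated library 2 of day 180) and 0 to 10 for day 180 minus day 90 (10 without library 1). Controls at day 90 against day 14 (20) gave 8 with upper-quartile scaling, 13 with no filter, 51 with DESeq2, 7 with the replicate block and 0 to 25 leaving out 1 library (0 without control library 4 of day 14). Controls at day 180 against day 14 (49) gave 20 with upper-quartile scaling, 83 with DESeq2, 25 with the replicate block and 15 to 49. Controls at day 180 against day 90 (0) gave 3 with upper-quartile scaling, 32 with DESeq2, 7 with limma-voom, 8 with the newer fit and 0 to 4. The replicate block changed no other count by more than 1.5 times, and the cause of these shifts was not tested.

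Direction changed for values near 0. At day 14 miR-379-5p was 0.0590 with upper-quartile scaling and 0.018 with a mean of at least 10 CPM, and leaving out 1 library it ran from -0.069 to 0.10, miR-411-5p from -0.13 to 0.016 and miR-376c-3p from -0.033 to 0.16. At day 90 those ranges were -0.046 to 0.10 for miR-127-3p, -0.055 to 0.21 for miR-154-5p and -0.15 to 0.39 for miR-299a-5p. At day 180 they were -0.0085 to 0.62 for miR-154-5p (lowest without irradiated library 1), -0.25 to 0.67 for miR-376c-3p (lowest without irradiated library 4) and -0.23 to 0.37 for miR-337-3p, which was -0.079 with limma-voom and -0.047 with the replicate block.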
